A study of Mus musculus with 96 samples.

Results

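Cry1 and Cry2, the 2 cryptochrome genes of the mouse, were followed in epidermis from the back of mice in which the circadian clock had been restored in chosen tissues. They were found by their symbols among the 22497 genes of each deposited expression table, and both were present in the table of every genotype. The data came from 96 libraries of polyadenylated RNA, made of 4 genotypes at 6 circadian times (CT) with 4 mice each, and CT0 was the hour of lights on. All mice were 8-week-old C57BL/6 females that had spent 156 to 176 h in constant darkness. The stopFL allele holds a stop cassette flanked by loxP sites, which Cre removes to restore the gene. RERE mice were Arntl stopFL/stopFL with K14Cre tg/wt and Syt10-Cre tg/wt, and are labelled as reconstituted in brain and epidermis. EpiRE mice were Arntl stopFL/stopFL with K14Cre tg/wt and Syt10-Cre wt/wt, and are labelled as reconstituted in the epidermis. BRE mice were Arntl stopFL/stopFL with K14Cre wt/wt and Syt10-Cre tg/wt, and are labelled as reconstituted in the brain. WT mice were Arntl wt/wt with K14Cre wt/tg and Syt10-Cre tg/wt, so they carried both Cre transgenes and no stop allele. Stop-allele mice without any Cre were not analysed here. K14Cre is driven by the keratin 14 promoter, which is active in basal cells of stratified epithelia in general. Syt10-Cre is driven by the synaptotagmin 10 locus, which is active in the suprachiasmatic nucleus and in some other neurons. Neither driver is limited to the named tissue.

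Cryptochromes are the repressors of the mammalian clock. The activators CLOCK and BMAL1 (the product of Arntl) bind E-boxes and switch on the Per and Cry genes, and PER and CRY proteins return to the nucleus, where CRY blocks the activators. CRY1 is the stronger and later of the repressors in mice, and mice without both cryptochromes lose behavioural rhythms in constant darkness. A second loop acts on Cry1 and Arntl through elements bound by ROR activators and the REV-ERB repressors Nr1d1 and Nr1d2, so Cry1 can be held down by the same REV-ERBs that BMAL1 switches on.

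Cry1 (ENSMUSG00000020038) lies on the minus strand of chromosome 10 at 85131700 to 85185064, and Cry2 (ENSMUSG00000068742) on the minus strand of chromosome 2 at 92403646 to 92434043, both in mm10. Their start-site regions are shown because the activators of the clock act through short motifs there. Each sequence is the 250 bases before the RefSeq start site (GRCm38.p6, the mm10 assembly), read 5′ to 3′ on the gene's own strand, and capitals mark the E-box CACGTG and the E′-box CACGTT, each searched on both strands, so that AACGTG is an E′-box on the opposite strand. Cry1 comes from chr10:85185055-85185304 and Cry2 from chr2:92434070-92434319.
Cry1: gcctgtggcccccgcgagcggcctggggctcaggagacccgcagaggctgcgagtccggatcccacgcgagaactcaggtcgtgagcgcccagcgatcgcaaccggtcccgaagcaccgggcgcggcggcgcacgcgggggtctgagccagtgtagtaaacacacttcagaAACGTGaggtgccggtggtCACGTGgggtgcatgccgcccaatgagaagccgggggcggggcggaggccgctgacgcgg
Cry2: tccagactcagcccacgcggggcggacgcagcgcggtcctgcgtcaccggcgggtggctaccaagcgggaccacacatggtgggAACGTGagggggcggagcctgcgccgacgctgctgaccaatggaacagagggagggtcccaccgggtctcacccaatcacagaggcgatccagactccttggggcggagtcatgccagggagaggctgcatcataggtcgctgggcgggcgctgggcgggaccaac
In the Cry1 window an E′-box lay at 79 to 74 bases before the start site and an E-box at 60 to 55 bases. In the Cry2 window there was 1 E′-box, at 166 to 161 bases, and no E-box. Of the 32851 promoters in the same RefSeq table, 6.02% held the E-box letters and 3.85% the E′-box letters in a window of this length. Neither window held the D-box TTANGTAA, found in 2.06% of promoters, or AGGTCA, the core of ROR and REV-ERB elements, found in 14.0%. These are matches of letters in one window and say nothing of binding here or elsewhere in the genes.

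Reads recovered from the deposited values gave libraries of 11.1 to 19.9 M reads (10 to the power of 6, median 15.2 M), of which Cry1 took 169 to 2276 and Cry2 750 to 2621 per library. Marker genes matched the labelled tissue: 6 keratinocyte markers summed to 14500 to 23900 RPKM per library, and 2 adipocyte markers to 0.0174 to 0.285 RPKM, with Adipoq and Plin1 listed at 0 in most libraries of every genotype. Markers of T cells summed to 5.83 to 39.4 RPKM and those of Langerhans cells to 92.9 to 234 RPKM, with overlapping ranges between genotypes. The sums were 0.222 to 7.62 RPKM for fibroblasts, 0.00823 to 0.307 for endothelium, 1.66 to 8.87 for melanocytes, 0.0243 to 4.32 for muscle and 0.0412 to 19.1 for red blood cells. The 4 hair follicle markers summed to 3050 to 5320 RPKM, of which Krt15 made nearly all. Arntl, the gene that carries the stop allele, averaged 3.89 ± 0.78 log2 RPKM in RERE, 4.16 ± 0.31 in EpiRE, 3.88 ± 0.14 in BRE and 3.88 ± 0.83 in WT (SD, n = 24 libraries each), so its gene-level value did not separate BRE from WT and is no check of the labels. In bulk RNA, fewer cells that express a gene and less RNA per cell cannot be told apart.

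Cry1 followed the day in RERE and in WT, with its lowest mean at CT4 and its highest at CT20. In BRE it stayed near the height of those highest means or above them at all times. At CT4 the 4 libraries held 2.67, 2.19, 2.74 and 2.76 log2 RPKM in RERE, 3.21, 3.98, 3.59 and 3.14 in EpiRE, 5.20, 5.18, 5.37 and 5.26 in BRE, and 2.48, 1.69, 1.99 and 1.74 in WT. At CT20 they held 4.73, 4.61, 4.63 and 4.97 log2 RPKM in RERE, 4.73, 3.86, 3.87 and 3.62 in EpiRE, 4.58, 5.41, 5.08 and 5.38 in BRE, and 4.90, 4.52, 4.27 and 4.50 in WT. At CT4 the BRE libraries stood above all others, EpiRE came next without overlap, and RERE and WT overlapped at the bottom. At CT20 RERE and WT overlapped, 3 of the 4 EpiRE libraries lay below every WT library, and 3 of the 4 BRE libraries lay above every WT library. CT4 and CT20 hold the lowest and highest WT means of Cry1. Over all 6 times BRE lay apart from WT without overlap at 5, EpiRE at 3 and RERE at 0. The same count over other genes was not made. On the linear scale the group means ran from 6.11 ± 1.04 RPKM at CT4 to 26.7 ± 3.23 RPKM at CT20 in RERE, and from 4.04 ± 1.09 to 23.7 ± 4.48 RPKM at the same times in WT (SD, n = 4 each). In EpiRE the group means kept between 11.5 ± 3.20 RPKM at CT4 and 17.0 ± 6.48 RPKM at CT20, and in BRE between 35.2 ± 3.27 RPKM at CT8 and 44.0 ± 1.35 RPKM at CT12.

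Cry2 crested earlier, at CT8 and CT12, and was lowest at CT0 in RERE and WT, while EpiRE and BRE kept close to the daily mean. At CT0 the libraries held 3.20, 2.86, 2.98 and 2.84 log2 RPKM of Cry2 in RERE, 3.60, 3.82, 3.49 and 3.85 in EpiRE, 3.95, 3.80, 3.90 and 3.61 in BRE, and 3.24, 3.03, 3.34 and 3.06 in WT. At CT8 they held 4.40, 4.31, 4.48 and 4.38 log2 RPKM in RERE, 4.13, 4.08, 3.73 and 4.19 in EpiRE, 3.83, 3.73, 3.86 and 3.84 in BRE, and 4.37, 4.38, 4.57 and 4.56 in WT. At both times every EpiRE and BRE library lay on the side of the WT libraries that is nearer to the middle of the day's range, without overlap, and RERE overlapped WT. CT0 and CT8 hold the lowest and highest WT means of Cry2, so the choice of times favours this pattern for a flatter course. Over all 6 times EpiRE and BRE each lay apart from WT without overlap at 3, and RERE at 1. How often other genes do so was not counted. As RPKM, the lowest and highest group means of Cry2 were 7.87 ± 0.946 at CT0 and 21.6 ± 1.27 at CT12 in RERE, 13.0 ± 1.54 at CT0 and 16.4 ± 2.21 at CT8 in EpiRE, 13.7 ± 2.53 at CT20 and 15.5 ± 1.49 at CT12 in BRE, and 9.03 ± 0.932 at CT0 and 22.2 ± 1.68 at CT8 in WT (SD, n = 4 each).

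**Figure D1:**
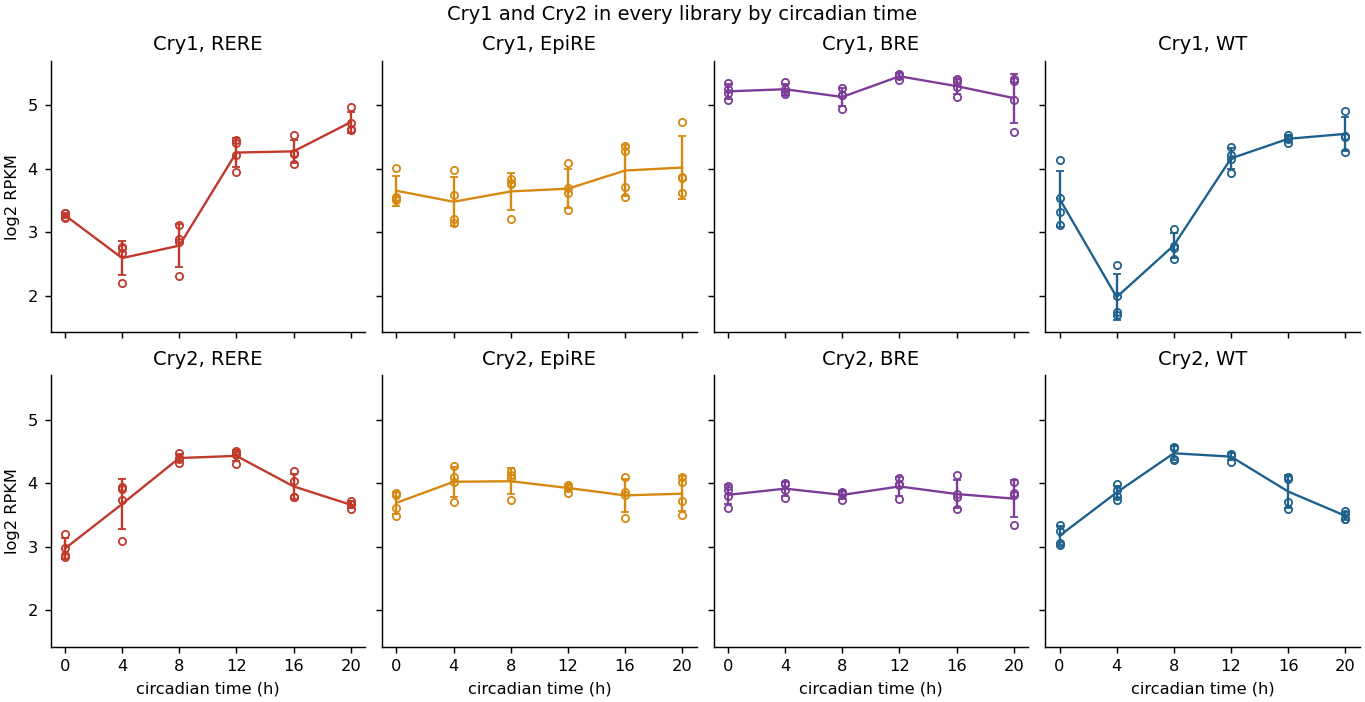
Level of Cry1 (top) and Cry2 (bottom) in log2 RPKM against circadian time in hours, with RERE, EpiRE, BRE and WT from left to right; open points are libraries and lines join the means with their SD (n = 4 each). Cry1 in BRE averaged 5.25 log2 RPKM and 23 of its 24 libraries lie above all WT libraries, while Cry2 in EpiRE (3.45 to 4.27) and BRE (3.34 to 4.13) stays within the WT range of 3.03 to 4.57.

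A cosine and sine of 24 h were fitted to each genotype with limma across all genes that averaged 1 RPKM or more, and a gene was called at a Benjamini-Hochberg adjusted p under 0.05. The amplitude is the distance of the fitted peak from the mean. Each library came from a separate mouse, so the fits describe the mean course of a genotype. The course within single mice was not measured, and a smaller fitted amplitude does not give the amplitude in each mouse. In RERE, Cry1 had an amplitude of 1.09 ± 0.09 log2 RPKM (SE), or 4.50-fold from trough to peak, and peaked at CT17.0 ± 0.33 h (limma adjusted p = 5.69e-08). Cry2 in RERE had an amplitude of 0.67 ± 0.07, or 2.53-fold, and peaked at CT11.2 ± 0.39 h (adjusted p = 9.21e-07). Both were called there, against 19.4% of all genes tested. In EpiRE the fitted amplitudes were 0.25 ± 0.09 for Cry1, with a peak at CT17.5 ± 1.40 h, and 0.14 ± 0.06 for Cry2, with a peak at CT8.15 ± 1.59 h. Neither passed in EpiRE (limma adjusted p = 0.37 for Cry1 and 0.449 for Cry2), where 0% of genes did: 1397 genes had an unadjusted p under 0.05, and limma with CT as a factor of 6 times called 199. In BRE the amplitudes were 0.09 ± 0.05 for Cry1 and 0.06 ± 0.05 for Cry2, and neither passed (limma adjusted p = 0.544 and 0.726), against 1.14% of genes called. In WT, Cry1 had an amplitude of 1.27 ± 0.10, or 5.83-fold, with its peak at CT17.0 ± 0.31 h (limma adjusted p = 1.09e-08), and Cry2 had 0.65 ± 0.05, or 2.45-fold, with its peak at CT10.3 ± 0.27 h (adjusted p = 1.03e-09). WT had 33.1% of its genes called.

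The differences of rhythm between genotypes were tested themselves, as the interaction of genotype with the cosine and sine. Between RERE and WT the rhythm of neither gene was shown to differ: the RERE amplitude minus the WT amplitude was -0.19 ± 0.15 for Cry1 (limma adjusted p = 0.924) and 0.02 ± 0.08 for Cry2 (adjusted p = 0.792), and 0% of genes passed in this pair, with 837 at an unadjusted p under 0.05 and 0 called with CT as a factor. The fitted peak of Cry2 lay 0.951 ± 0.486 h later in RERE than in WT, and that of Cry1 was at CT17.0 in both. EpiRE differed from WT in both genes, with an amplitude of 0.198 times the WT value for Cry1 (limma adjusted p = 7.63e-05) and 0.217 times for Cry2 (adjusted p = 8.35e-05), where 1.57% of genes passed. BRE differed from WT in both genes, with 0.0714 times the WT amplitude for Cry1 (limma adjusted p = 9.53e-10) and 0.0888 times for Cry2 (adjusted p = 9.55e-08), where 5.69% passed. RERE differed from EpiRE, with an amplitude 4.30 times as large for Cry1 (limma adjusted p = 0.000585) and 4.77 times for Cry2 (adjusted p = 0.000376), where 1.05% of genes passed. Without replicate 2 of every group neither difference between RERE and EpiRE passed (limma adjusted p = 0.0654 for Cry1 and 0.0832 for Cry2). RERE also differed from BRE (limma adjusted p = 1.75e-08 for Cry1 and 5.70e-06 for Cry2, 4.19% of genes called). Between EpiRE and BRE neither passed: the EpiRE amplitude minus the BRE amplitude was 0.16 ± 0.11 for Cry1 (limma adjusted p = 0.64) and 0.08 ± 0.08 for Cry2 (adjusted p = 0.888), and 0% of genes did, with 941 at an unadjusted p under 0.05 and 3 called with CT as a factor. Pairs with a genotype in common share its 24 libraries.

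Among the genes of the clock loop, Cry2 peaked with the E-box and D-box genes of the late day and Cry1 well after them. In RERE the fitted peaks lay for Nr1d1, a REV-ERB repressor, at CT7.36, Nr1d2 at CT9.93, the transcription factor Dbp at CT10.3 and Per1 at CT11.2. Cry2 also lay at CT11.2. Then came Tef, a relative of Dbp, and Per3, both at CT11.7, and Per2 at CT12.6. Cry1 stood between these and the activator genes Clock at CT20.5, Arntl at CT22.5 and Npas2 at CT22.8. In WT the same genes peaked at CT7.11 for Nr1d1, CT9.27 for Nr1d2, CT9.39 for Dbp, CT10.1 for Per1, CT10.3 for Cry2, CT10.9 for Tef, CT11.2 for Per3 and CT12.5 for Per2. Cry1 followed at CT17.0, and then Clock at CT20.1, Arntl at CT22.0 and Npas2 at CT22.5. The standard errors of these peaks ran from 0.204 h for Nr1d1 to 1.01 h for Clock in RERE. In WT they ran from 0.197 h for Nr1d1 to 0.992 h for Per1. The order of neighbours from Nr1d2 to Per3, Cry2 among them, is therefore not resolved in either genotype. By amplitude Cry1 ranked 16 of 11032 genes tested in RERE and 13 of 11087 in WT, and Cry2 ranked 120 in RERE and 147 in WT.

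**Figure D2:**
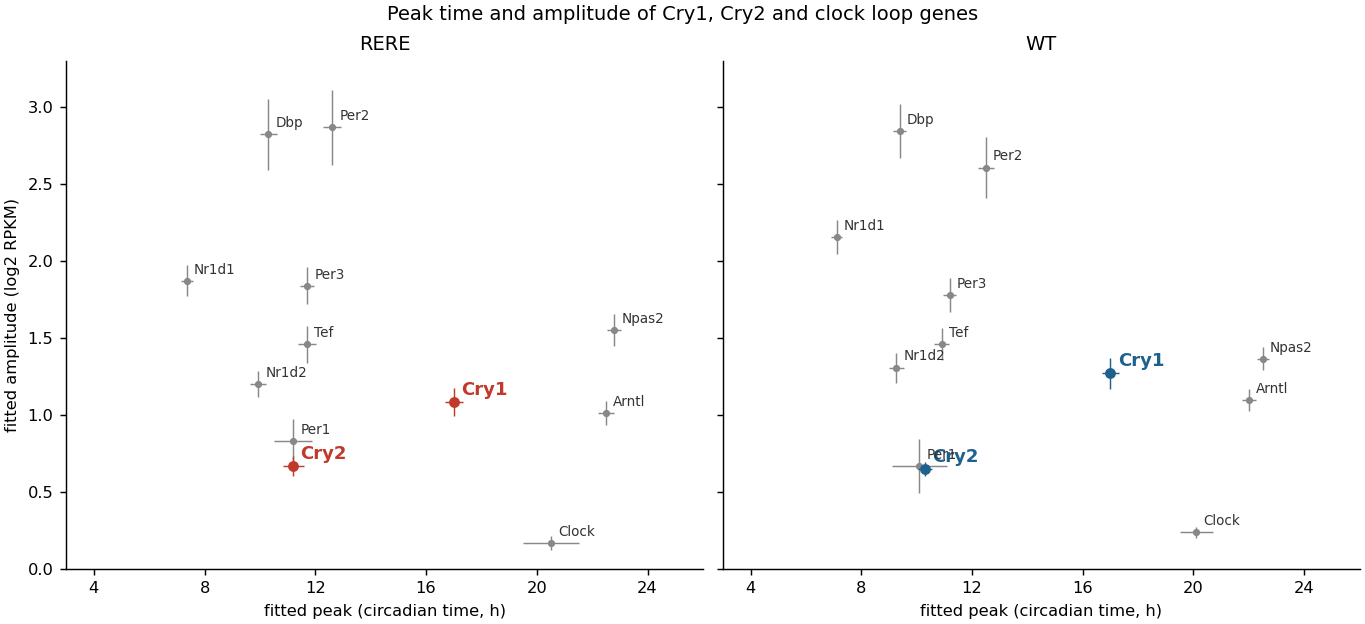
Fitted amplitude in log2 RPKM against fitted peak time in circadian hours for Cry1 and Cry2 (coloured) and the clock loop genes named with them (grey), in RERE on the left and WT on the right; bars are SE. Cry2 sits among the day-end genes at CT11.2 in RERE and CT10.3 in WT, and Cry1 at CT17.0 in both, between Per2 and the activator genes.

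The daily mean of Cry1 was much higher in BRE than in the other genotypes, and that of Cry2 was not shown to differ in any pair. The lowest, median and highest of 24 libraries of Cry1 were 2.19, 3.63 and 4.97 log2 RPKM in RERE, 3.14, 3.71 and 4.73 in EpiRE, 4.58, 5.26 and 5.49 in BRE, and 1.69, 4.04 and 4.90 in WT. Of the 24 BRE libraries 23 lay above every WT library, and the exception was replicate 1 at CT20. With CT as a factor, Cry1 was higher in BRE than in WT by 1.67 ± 0.15 log2 RPKM (SE), which is 3.17-fold (95% CI 2.57 to 3.92, limma adjusted p = 9.77e-12). It was the gene with the seventh largest rise among 11016 genes, of which 36.9% were called, 12.5% higher in BRE and 24.4% lower. RERE lay below BRE by -1.59 ± 0.13 log2 RPKM, or 0.331 times its level (limma adjusted p = 7.26e-13, with 27.5% of genes called and 10.1% lower), and EpiRE by -1.50 ± 0.08, or 0.353 times (adjusted p = 5.12e-19, with 34% called and 11.1% lower). Markers of cell types moved in the same comparison of BRE with WT. Of the 6 keratinocyte markers 3 were higher, Krt1 by 0.36 ± 0.05, Krt10 by 0.35 ± 0.06 and Ivl by 0.67 ± 0.13 log2 RPKM. Krt5 averaged 12.534 log2 RPKM in BRE and 12.577 in WT, and Krt14 11.372 in BRE and 11.468 in WT. Lor averaged 4.258 in BRE and 3.875 in WT. The whole list summed to 18400 to 23900 RPKM in BRE and 16400 to 22400 in WT. Of the 4 hair follicle markers Krt15, Sox9 and Lhx2 were lower, Lhx2 by -0.94 ± 0.13, with sums of 3050 to 4190 RPKM in BRE and 3100 to 5320 in WT. Krt15 made nearly all of these sums, with means of 11.78 log2 RPKM in BRE and 11.95 in WT. Sox9 averaged 3.80 in BRE and 4.07 in WT. Of the T cell markers Cd3e and Cd3g were lower, by -0.36 ± 0.13 and -0.33 ± 0.11, with sums of 9.06 to 21.1 RPKM in BRE and 5.83 to 29.1 in WT. Of the Langerhans markers Cd74 and Epcam were lower, by -0.34 ± 0.13 and -0.33 ± 0.04, with sums of 94.3 to 188 RPKM in BRE and 103 to 234 in WT. Cd207, also a Langerhans marker, differed by -0.47 ± 0.19 and did not pass (limma adjusted p = 0.0508). Of the 3 melanocyte markers Pmel and Dct were lower, by -0.47 ± 0.09 and -0.66 ± 0.24, with sums of 1.66 to 6.79 RPKM in BRE and 2.59 to 7.79 in WT. The part of all these shifts in the Cry1 result was not tested.

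In order, Cry1 averaged 5.25 ± 0.20 log2 RPKM in BRE, 3.74 ± 0.38 in EpiRE, 3.65 ± 0.85 in RERE and 3.58 ± 0.99 in WT (SD over 24 libraries, rhythm included). No difference of level among the last 3 was called. The fits of level hold no term for genotype by CT, so their SE take in differences of rhythm as well as the spread between animals. EpiRE minus WT was 0.16 ± 0.14 (95% CI -0.13 to 0.45, limma adjusted p = 0.844, 2.23% of genes called), and RERE minus WT was 0.07 ± 0.08 (95% CI -0.09 to 0.23, adjusted p = 0.774, 2.14% called). RERE minus EpiRE was -0.09 ± 0.13 (95% CI -0.34 to 0.16, limma adjusted p = 0.96), a pair in which 0.00906% of genes were called, or 1 gene, against 653 at an unadjusted p under 0.05. For Cry2 the means were 3.84 ± 0.54 log2 RPKM in RERE, 3.88 ± 0.23 in EpiRE, 3.85 ± 0.17 in BRE and 3.88 ± 0.49 in WT. None of the 6 pairs was called (limma adjusted p from 0.614 to 0.999). Cry2 in BRE minus WT was -0.03 ± 0.08 (95% CI -0.19 to 0.13, limma adjusted p = 0.778). As a fold that interval runs from 0.877 to 1.09, and it too takes in the difference of rhythm.

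The comparison at each CT, from a fit of all 24 groups with a shared spread, showed where the levels parted. Cry1 in BRE exceeded WT by 1.69 log2 RPKM at CT0, 3.28 at CT4, 2.34 at CT8, 1.29 at CT12 and 0.83 at CT16, each with an SE of 0.19 and called (limma adjusted p from 2.69e-24 at CT4 to 0.00286 at CT16). The gap at CT4 was 9.69-fold and the third largest of 11028 genes, and the shares of genes called at these times were 1.77%, 5.09%, 9.77%, 11.8% and 5.75%. At CT20, where WT reaches its own crest, BRE minus WT was 0.56 ± 0.19 and not called (limma adjusted p = 0.186, 0.254% of genes called), but without replicate 1 of every group, which includes the low BRE library, it was 0.86 and called (adjusted p = 0.00797). Without the filter on low values the difference stayed at 0.56 and its limma adjusted p was 0.0271. That setting lets genes at 0 reads, whose floor differs between genotypes, into the adjustment, so the pass is no evidence of a difference. EpiRE minus WT for Cry1 changed sign over the day: it was 1.50 at CT4 (limma adjusted p = 1.14e-07, 0.635% of genes called) and 0.85 at CT8 (adjusted p = 0.017, 0.354% called), 0.13 at CT0, and -0.48 at CT12, -0.50 at CT16 and -0.53 at CT20, of which the last 4 did not pass (adjusted p from 0.184 to 0.849). Without the filter CT20 had a limma adjusted p of 0.0469, with the difference still -0.53 and the same limit. At those 4 times 0.0453%, 1.39%, 1.1% and 0.00907% of genes were called. Leaving out replicate 2, 3 or 4 of every group kept CT4 and lost CT8 (adjusted p 0.203, 0.183 and 0.0847). EpiRE lay below BRE in Cry1 at all 6 times, by -1.10 log2 RPKM at CT20 to -1.77 at CT4 and CT12 (limma adjusted p up to 0.000123), and without replicate 4 of every group 5 of the 6 were called. The shares of genes called between EpiRE and BRE were 4.17% at CT0, 2.9% at CT4, 5.55% at CT8, 10% at CT12, 8.64% at CT16 and 0.553% at CT20.

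For Cry2 the departures from WT were smaller and took both signs. BRE exceeded WT by 0.65 ± 0.13 log2 RPKM at CT0 (limma adjusted p = 0.00184) and fell short of it by -0.66 at CT8 (adjusted p = 0.000189) and -0.47 at CT12 (adjusted p = 0.00823), and at CT4, CT16 and CT20 the differences of 0.06, -0.04 and 0.27 did not pass. Without replicate 2 of every group the calls at CT0 and CT12 were lost (adjusted p 0.104 and 0.0875), and CT12 was also lost without replicate 1 (adjusted p 0.0603). EpiRE was lower than WT in Cry2 at CT12, by -0.50 ± 0.13 (limma adjusted p = 0.0316), a call that was lost without replicate 1, 2 or 4 of every group (adjusted p 0.0907, 0.157 and 0.176). At CT0 and CT8 EpiRE minus WT for Cry2 was 0.52 and -0.44 (adjusted p = 0.0983 and 0.161), and at CT0 it passed without replicate 3 (adjusted p = 0.0078). This fit called RERE against WT in neither gene at any CT. The largest departure was Cry1 at CT4, 0.62 ± 0.19 (limma adjusted p = 0.124), which passed without replicate 1 of every group (adjusted p = 0.0235). At CT4 0% of genes were called between RERE and WT, with 1630 at an unadjusted p under 0.05. None of the genes was called at CT0, CT8 or CT12 either, where 538, 754 and 551 had an unadjusted p under 0.05, and 0.0181% were called at CT16 and 0.0272% at CT20.

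**Figure D3:**
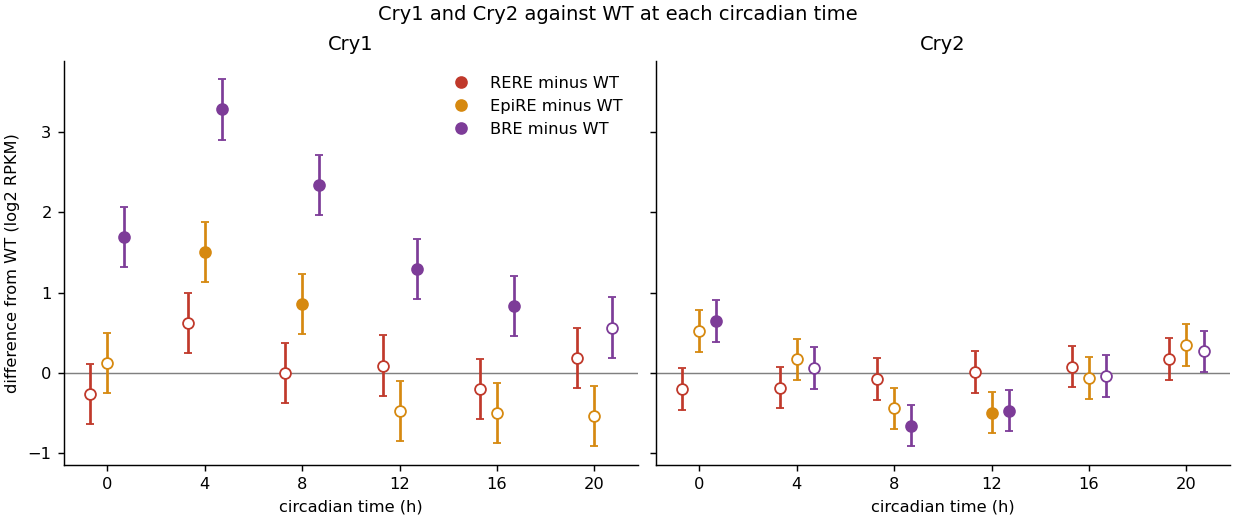
Difference from WT in log2 RPKM at each circadian time in hours for Cry1 (left) and Cry2 (right), with RERE, EpiRE and BRE side by side; bars are 95% confidence intervals and filled points passed the limma test at an adjusted p under 0.05. Cry1 in BRE is highest against WT at CT4, 3.28, and every Cry2 difference lies between -0.66 and 0.65.

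RPKM is per length, and the levels of both genes were set beside each other on that scale, with recovered lengths of 3016 bases for Cry1 and 6366 for Cry2. Whether reads of both genes are captured and counted equally well was not tested, so which gene is the higher is uncertain. Cry1 minus Cry2 was 1.40 ± 0.17 log2 RPKM in BRE (SD, n = 24), and Cry1 was the higher in 24 of 24 libraries there. It was -0.19 ± 0.97 in RERE, -0.14 ± 0.51 in EpiRE and -0.30 ± 1.17 in WT, where Cry1 was the higher in 12, 6 and 12 of 24 libraries. In RERE and WT the balance swung with the day. In RERE it was -1.61 ± 0.33 at CT8 and 1.08 ± 0.13 at CT20, and in WT -1.88 ± 0.42 at CT4 and 1.07 ± 0.24 at CT20 (SD, n = 4 each), so Cry2 led in all 4 libraries of both genotypes at CT4 and CT8 and Cry1 in all 4 at CT0 and CT20. In BRE the group means kept between 1.32 at CT8 and 1.51 at CT12. The sum of both genes was 30.0 ± 9.67 RPKM in RERE, 28.8 ± 3.72 in EpiRE, 52.7 ± 5.90 in BRE and 30.0 ± 8.54 in WT (SD, n = 24), of which Cry1 made 49.0% in RERE, 48.1% in EpiRE, 72.6% in BRE and 48.3% in WT. The summed level still moved over the day in RERE, 2.33-fold between the CT0 and CT12 means, and in WT, 2.13-fold between CT4 and CT12, against 1.22-fold in EpiRE and 1.21-fold in BRE. These balances are descriptions of the levels and were not tested apart from them.

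**Figure D4:**
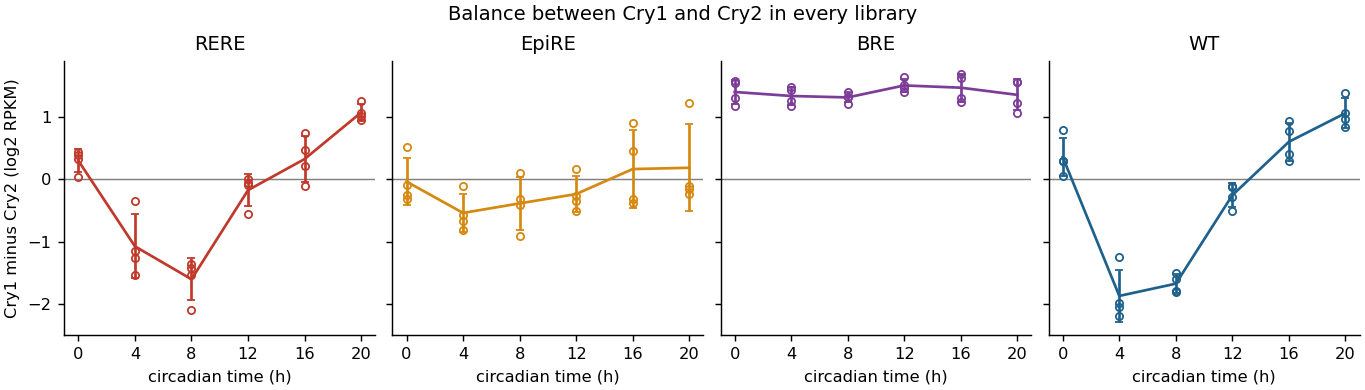
Cry1 minus Cry2 in log2 RPKM against circadian time in hours, with RERE, EpiRE, BRE and WT from left to right. Open points are libraries, and lines join means with their SD (n = 4 each). Values above 0 mean a higher RPKM of Cry1. The balance crosses 0 over the day in RERE and WT and stays near 1.40 in BRE.

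Within one CT, Cry1 varied more between EpiRE animals than between BRE animals, while a wider spread than in WT was not shown. The mean absolute distance of a library from the mean of its group in Cry1 was 0.27 log2 RPKM in EpiRE, 0.15 in RERE, 0.11 in BRE and 0.17 in WT. EpiRE exceeded BRE (permutation test on 24 libraries each, two-sided, p = 0.00028, adjusted p = 0.00224 over 8 comparisons), while EpiRE against WT did not pass (adjusted p = 0.216). The shuffle treated the 24 deviations as free, although those of a group share a mean, so the p-values of spread are not exact. Without replicate 1 of every group the difference from BRE was 0.09 and did not pass (adjusted p = 0.111). In an example chosen after its values were seen, EpiRE replicate 1 at CT20 held 4.73 log2 RPKM of Cry1 and 3.50 of Cry2, against 3.62 to 3.87 of Cry1 and 3.72 to 4.10 of Cry2 in the other 3 animals, so the highest Cry1 and the lowest Cry2 fell in the same mouse. For Cry2 the mean distances were 0.15 in EpiRE, 0.12 in RERE, 0.12 in BRE and 0.10 in WT, and no pair passed (adjusted p from 0.258 to 0.635).

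The deviations of single animals from their group means were then set against those of Arntl, Nr1d1, Per2 and Dbp, and of the cryptochromes against each other, in 36 relations of 24 animals each. By Pearson's r 21 passed an adjusted p under 0.05 (permutation test, 100000 resamples, two-sided). By both r and Spearman's rho 15 did, 4 of 9 in RERE, 7 in EpiRE, 1 in BRE and 3 in WT. Deviations within a group are tied by their shared mean, while the shuffle treated all 24 as free. The p-values are therefore too small by an amount not measured, and passes near 0.05 may not hold. Whether the genotypes differ in r was not tested. In EpiRE, Cry1 ran against Nr1d1, the REV-ERB gene, with r = -0.78 and rho = -0.78 (permutation p = 1e-05, the smallest that these resamples can give, for r, adjusted p = 0.00012), and r was -0.69 without the 2 animals farthest out. Cry1 in EpiRE also ran against Dbp (r = -0.70, rho = -0.61, permutation p = 9e-05, adjusted p = 0.00054) and with Arntl (r = 0.61, rho = 0.57, p = 0.00162, adjusted p = 0.00486). In these relations r was -0.58 and 0.70 without the 2 animals farthest out. Cry1 with Arntl did not pass without replicate 1 of every group (r = 0.409, permutation adjusted p = 0.159) or without replicate 2 (r = 0.454, adjusted p = 0.0897). Cry2 in EpiRE ran with Dbp (r = 0.72, rho = 0.71, permutation p = 0.00015, adjusted p = 0.000765) and with Per2 (r = 0.70, rho = 0.69, p = 0.00017, adjusted p = 0.000765). It ran against Arntl (r = -0.67, rho = -0.66, permutation p = 0.00043, adjusted p = 0.00141). Without the farthest 2 animals r was 0.675 with Dbp, 0.63 with Per2 and -0.54 with Arntl. Among the animals of replicates 2 to 4 alone, r was -0.515 for Cry1 with Nr1d1 and -0.505 for Cry1 with Dbp, and neither passed (permutation adjusted p = 0.0758 for each). Cry2 with Arntl had r = -0.564 there and did not pass (permutation adjusted p = 0.061). The count of EpiRE relations that passed by r was 2 there, against 7 with all animals.

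Cry2 ran with Per2 and Dbp in RERE and WT animals as well. In RERE r was 0.81 with Per2 and 0.93 with Dbp (rho = 0.73 and 0.86, permutation p = 2e-05 and 1e-05, adjusted p = 0.000144 and 0.00012), and without the 2 animals farthest out it was 0.55 and 0.84. In WT r was 0.82 with Per2 and 0.68 with Dbp (rho = 0.84 and 0.53, permutation p = 1e-05 and 0.00023, adjusted p = 0.00012 and 0.00092), and 0.79 and 0.44 without those 2. Cry1 and Nr1d1 had r = -0.32 in RERE and -0.38 in WT, and neither passed by r (permutation adjusted p = 0.15 and 0.11). By rho, which was -0.37 in RERE and -0.56 in WT, the WT relation passed (adjusted p = 0.0147). In BRE the relation that passed by r and rho was Cry1 with Per2 (r = 0.72, rho = 0.74, permutation p = 2e-05, adjusted p = 0.000144, r = 0.61 without the 2 farthest). The other 4 that passed by r in BRE rested on the 2 animals farthest out, of which one was each time replicate 1 at CT20, the lowest of all BRE libraries in Cry1 and in Cry2. Cry1 with Nr1d1, for example, had r = -0.49 with them and -0.17 without them, and 1 of the BRE relations passed without replicate 1 of every group.

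**Figure D5:**
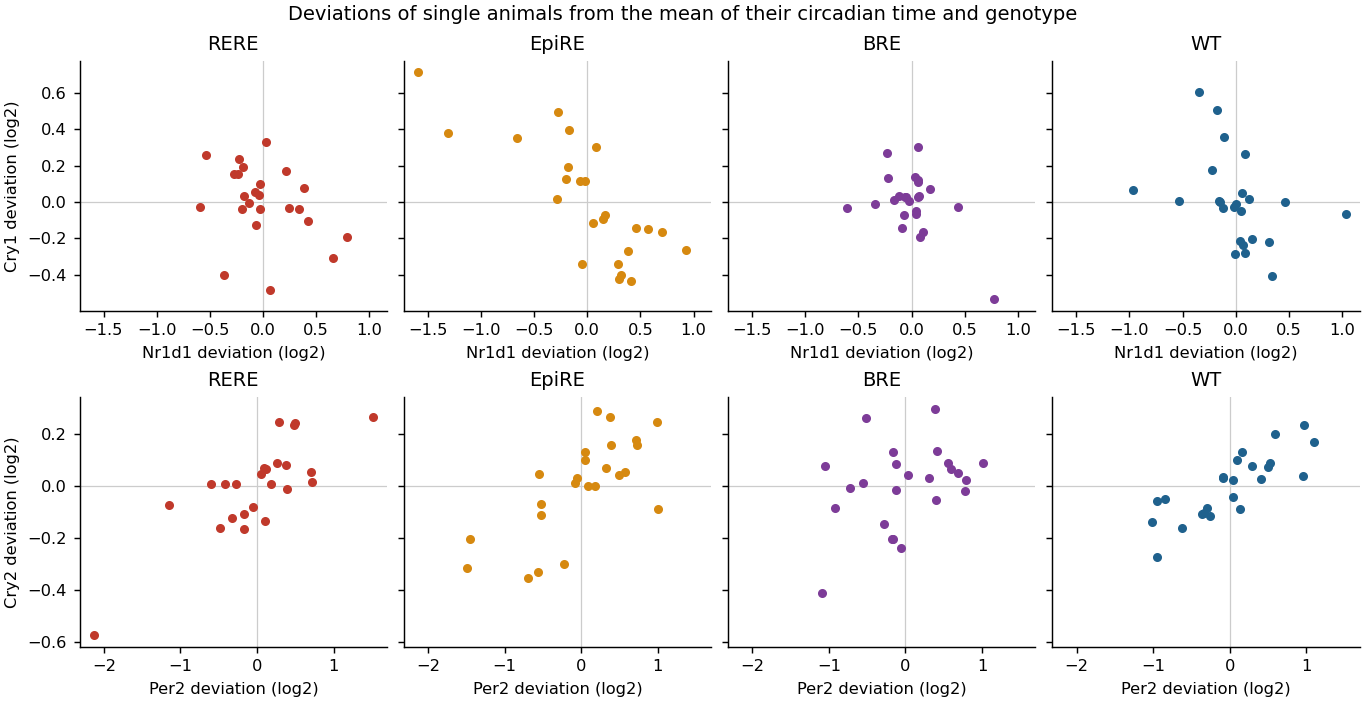
Deviation of each animal from the mean of its genotype and circadian time, in log2 RPKM, for Cry1 against Nr1d1 (top) and Cry2 against Per2 (bottom), with RERE, EpiRE, BRE and WT from left to right (n = 24 animals each). Cry1 falls as Nr1d1 rises in EpiRE (r = -0.78), and Cry2 rises with Per2 in RERE, EpiRE and WT (r = 0.81, 0.70 and 0.82).

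The clock loop as a whole frames these values. Of 18 listed genes 16 were tested in all comparisons but the BRE rhythm, where 15 were. Rhythms were called for 15 in RERE, 0 in EpiRE, 1 in BRE and 16 in WT, where 19.4%, 0%, 1.14% and 33.1% of all genes were. The list had median amplitudes of 1.23, 0.35, 0.11 and 1.23 log2 RPKM, against 0.10, 0.07, 0.07 and 0.12 over all genes tested. In EpiRE 8 of the 16 had an unadjusted p under 0.05. The gene called in BRE was Per1, with an amplitude of 0.66 ± 0.13 and a peak at CT11.8 (limma adjusted p = 0.0281), where Cry1 and Cry2 had amplitudes of 0.09 and 0.06. Without replicate 2 of every group 0 genes were called for rhythm in BRE, so the Per1 call was lost there. In level, 12 of 16 were called between BRE and WT, 4 higher and 8 lower, where 36.9% of all genes were called, 12.5% higher and 24.4% lower. The list had a median difference of -0.35 against -0.05 over all genes. The higher ones included the activators Npas2 (1.98 ± 0.17) and Clock (0.32 ± 0.04) and Nfil3 (0.56 ± 0.18), a repressor of D-box genes. The 8 lower ones included Nr1d1 (-3.41 ± 0.25), Nr1d2 (-2.56 ± 0.15), Dbp (-2.17 ± 0.33) and Per3 (-1.92 ± 0.22). Per1, also a repressor gene, was lower by -0.55 ± 0.15, so that Cry1 was higher in BRE where Per1 and Per3 were lower. Per2 did not pass (0.07 ± 0.31). Between EpiRE and WT limma called 0 of 16 in level, with 3 at an unadjusted p under 0.05, and 11 of 16 in rhythm, against 2.23% and 1.57% of all genes. Between RERE and WT it called 0 of 16 in level and 0 in rhythm, with 2 at an unadjusted p under 0.05 in each.

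The cryptochrome turnover list held genes whose products modify or degrade cryptochromes or PER-CRY complexes, together with Timeless. It had 17 symbols, of which 16 were in the tables and 15 tested, with Skp1 given under its older symbol Skp1a. Rhythms were called for 2 in RERE, 0 in EpiRE, 0 in BRE and 4 in WT, where 19.4%, 0%, 1.14% and 33.1% of all genes were. The median amplitudes were 0.07, 0.04, 0.03 and 0.07 log2 RPKM, against 0.10, 0.07, 0.07 and 0.12 over all genes, and in EpiRE and BRE 1 and 2 had an unadjusted p under 0.05. Timeless, a partner of cryptochromes in mammalian cells, had an amplitude of 0.75 ± 0.11 with a peak at CT12.7 in RERE and 0.65 ± 0.11 with a peak at CT12.5 in WT (limma adjusted p = 0.000102 and 0.000447). In EpiRE its fitted amplitude was 0.15 ± 0.14, and in BRE it was 0.46 ± 0.12 with a fitted peak at CT1.42, and neither passed (limma adjusted p = 0.83 and 0.0839). The rhythm of Timeless differed between EpiRE and WT, BRE and WT, RERE and EpiRE and RERE and BRE (limma adjusted p = 0.0433, 4.17e-05, 0.0143 and 5.27e-06). Prkaa1, a catalytic subunit of AMPK, had amplitudes of 0.11 ± 0.03 in RERE and 0.12 ± 0.03 in WT. Between BRE and WT 8 of 15 were called in level, 4 higher and 4 lower, where 36.9% of all genes were called. The 8 differences ran from -0.18 ± 0.06 for Btrc to 0.16 ± 0.05 for Prkaa2, with a median of -0.04 over the list against -0.05 over all genes.

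Over the 24 group means, the genes with the course most like that of Cry1 among 11026 compared included Map3k9 (r = 0.95), Ermp1 (0.88), Fam107b (0.88) and Cobl (0.87), and the most opposed were Nr1d1 (-0.91), Crispld2 (-0.91) and Cenpb (-0.90). Map3k9 averaged 2.67 ± 0.25 log2 RPKM in RERE, 2.65 ± 0.15 in EpiRE, 2.98 ± 0.12 in BRE and 2.66 ± 0.25 in WT (SD, n = 24 each). Nr1d1 averaged 5.44 ± 1.40, 5.74 ± 0.69, 2.13 ± 0.30 and 5.54 ± 1.61 in that order. For Cry2 the most alike were D930015M05Rik (r = 0.92), Tef (0.91), Per2 (0.88), Zfp281 (0.87) and Cipc (0.86), and the most opposed Arntl (-0.91), Tuba8 (-0.88) and Ift80 (-0.87). D930015M05Rik lies antisense to Cry2 at 92408892 to 92432308 on the plus strand of chromosome 2, and 295 bases of its exons overlap those of Cry2. The sources used here do not say if strand was used in counting, so reads in the overlap could belong to either gene. Its likeness to Cry2 is uncertain for that reason. Cry1 and Cry2 themselves had r = -0.05 over the group means. Their spliced exons shared 7 stretches of 20 bases and 0 of 31 bases, so few reads could be given to the wrong cryptochrome. The correlations are descriptions over groups that share genotypes and times.

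In the authors' deposited tables, the q-values of JTK_CYCLE for Cry1 were 0.000311 in RERE, 1 in EpiRE, 1 in BRE and 2.75e-06 in WT. For Cry2 the authors' deposited table of JTK_CYCLE gave 1.31e-05 in RERE, 1 in EpiRE, 1 in BRE and 2.46e-05 in WT. The q-values of BIOCYCLE in the authors' deposited tables were 0.173 in RERE, 0.696 in EpiRE, 0.566 in BRE and 0.0909 in WT for Cry1, and at 0.0593, 0.585, 0.888 and 0.00208 in the same order for Cry2. At a threshold of 0.05 the 2 programs therefore part on Cry1 in RERE and WT and on Cry2 in RERE, and give the same side for both genes in EpiRE and BRE and for Cry2 in WT. The authors' deposited BIOCYCLE lags for Cry1 were 17.3 h in RERE and 17.2 h in WT, beside fitted peaks of CT17.0 in both genotypes. Those for Cry2 were 11.1 h in RERE and 10.2 h in WT, beside fitted peaks of CT11.2 and CT10.3. The authors' deposited JTK_CYCLE lags were 18 h for Cry1 and 12 h for Cry2 in both RERE and WT.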

How the data were processed

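Libraries were prepared from polyadenylated RNA with a stranded kit and adaptors with molecular identifiers, per the labels' protocols. The submitters' processing notes name Trimmomatic 0.36, HISAT2 2.2.1, SAMtools 1.3.1, featureCounts 1.6.0, edgeR and mm10 as used by the authors. Whether they used strand and identifiers in counting is not given here by any source. The authors deposited log2 RPKM per gene and library, read as log2 from values that reach below 0, with p-values and q-values of BIOCYCLE and JTK_CYCLE from the authors and their period and lag in hours. Each library's genotype and CT were taken from its column name in the BIOCYCLE tables. The 96 library columns of the JTK_CYCLE tables have codes that match no label and were not used.

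The deposited values were fitted as they are with limma 3.58.1 (R 4.3.3, empirical Bayes with a mean trend), over genes whose mean in the libraries fitted was 0 log2 RPKM or more, and p-values were adjusted by Benjamini-Hochberg over all genes tested. A 24 h cosine and sine gave rhythms in the 24 libraries of a genotype, their interaction with genotype the differences of rhythm, genotype with CT as a factor the differences of level, and 24 group means the differences at each CT. The zero floor of the values differs between the 4 genotype tables, so genes without reads could not be compared between them. Whole reads were recovered for 22476 of 22497 genes (99.91%, within 0.1 reads) and used for depth only. The 21 genes without held 11.0% of reads. Libraries of a group differed by more than sampling noise (chi-square per gene at least 3.91), and each was a separate mouse. Spread and relations were tested by two-sided permutation with 100000 resamples on deviations from group means, shuffled as if independent. Genes named are Cry1, Cry2, a clock loop list, a cryptochrome turnover list and, for each cryptochrome, the 5 genes most alike and the 3 most opposed over the group means; cell type markers were listed as well. Some listed genes are not reported here. The members and lists were chosen with earlier results of these data known. The fits were tested on simulated data. Alternatives were other scalings, pseudocounts, filters, variance models, rhythm shapes, a replicate block and libraries left out.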

Additional observations from a re-analysis of the deposited data

Results flagged for a closer look

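Over the 24 groups of 4 libraries, looked at once for each gene (48 in all, on the same libraries), 4 held a library whose gap to the next divided by the group's range was above Dixon's 95% critical value, where chance gives about 1 in 20. For Cry1 these were replicate 2 of RERE at CT4, the lowest with 2.19 log2 RPKM beside 2.67 to 2.76 in the others, replicate 3 of EpiRE at CT0, the highest with 4.005 beside 3.51 to 3.56, and replicate 1 of EpiRE at CT8, the lowest with 3.21 beside 3.76 to 3.83. For Cry2 it was replicate 3 of WT at CT12, the lowest with 4.33 beside 4.44 to 4.45.

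The rhythm of both cryptochromes differed between genotypes in 4 pairs, by limma's interaction test. The adjusted p for Cry1 was 7.63e-05 between EpiRE and WT, 9.53e-10 between BRE and WT, 0.000585 between RERE and EpiRE and 1.75e-08 between RERE and BRE. The limma adjusted p for Cry2 was 8.35e-05 between EpiRE and WT, 9.55e-08 between BRE and WT, 0.000376 between RERE and EpiRE and 5.70e-06 between RERE and BRE. These pairs share libraries, and their values stand with the amplitudes in the report.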

How the results depend on the processing

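Every call of rhythm, difference of rhythm and difference of level for Cry1 and Cry2 kept its direction and side of the threshold under log2(RPKM + 1), median-of-ratios scaling, no filter, no mean trend, CT as a factor, a shared spread and the replicate block, except for the signs of Cry2 level differences near 0. BRE minus WT was 0.003 under median-of-ratios scaling, and RERE minus BRE 0.005 under log2(RPKM + 1). At CT16, Cry2 in BRE minus WT was 0.028 under median-of-ratios scaling. Without the filter the number of CT called was 1 for Cry1 between RERE and WT (CT4, limma adjusted p 0.0129). It was 3 for Cry1 between EpiRE and WT and 6 between BRE and WT, each with CT20 added (0.0469 and 0.0271). For Cry2 it was 3 between EpiRE and WT, with CT0 and CT8 added (0.00112 and 0.00823). These added calls are no evidence of a difference, since genes at 0 reads, with another floor in each genotype, entered the adjustment.

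Leaving out one replicate number or one library in turn gave adjusted p of 0.000101 to 0.0654 for the Cry1 difference of rhythm between RERE and EpiRE and 0.000107 to 0.0832 for Cry2. The other ranges are over replicate numbers. The level difference ran from -4.79e-05 to 0.126 for Cry1 between RERE and WT, and for Cry2 from -0.062 to 0.022 between BRE and WT, -0.069 to 0.045 between RERE and BRE and -0.012 to 0.055 between EpiRE and WT. The number of CT called ran from 1 to 2 for Cry1 between EpiRE and WT, 0 to 1 between RERE and WT, 5 to 6 between BRE and WT and 5 to 6 between EpiRE and BRE, and for Cry2 from 0 to 2 between EpiRE and WT and 1 to 3 between BRE and WT. Cry2 at CT16 ran from -0.248 to 0.123 for EpiRE minus WT and -0.193 to 0.106 for BRE minus WT. The spread difference ran from 0.093 to 0.17 for Cry1 between EpiRE and BRE, and from -0.017 to 0.058 for Cry2 both between BRE and WT and between EpiRE and BRE. Relations that passed numbered 3 to 5 in RERE, 2 to 9 in EpiRE, 1 to 5 in BRE and 2 to 4 in WT. Leaving out 1 of the 96 libraries in turn (chosen after seeing the data) changed no call of rhythm or level for Cry1 or Cry2; Cry2 in EpiRE minus WT then reached -0.014 and RERE minus BRE 0.034.

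Over all genes, counts moved by more than 1.5 times. For the rhythm in BRE, 125 became 12 without the filter, 76 without the trend, 31 with CT as a factor and 41 with the replicate block; in EpiRE 0 became 199 with CT as a factor and 122 with a shared spread, and in WT 3675 became 2249 with CT as a factor. For differences of rhythm, 174 between EpiRE and WT became 97 without the filter, 109 with CT as a factor and 305 with a shared spread. With CT as a factor 627 between BRE and WT became 285, 461 between RERE and BRE became 286, and 0 between EpiRE and BRE became 3; 116 between RERE and EpiRE became 77 without the filter and 201 with a shared spread. Level calls without the filter were 4310 for RERE and WT, 4303 for EpiRE and WT, 8585 for BRE and WT, 347 for RERE and EpiRE, 7324 for RERE and BRE and 8025 for EpiRE and BRE, since genes at 0 reads have another floor in each genotype's table. RERE and EpiRE had 2 calls under log2(RPKM + 1) and median-of-ratios scaling. Without 1 replicate number the rhythm was called for 875 to 1619 genes in RERE (2136 with all), 0 to 198 in BRE (125) and 2019 to 2701 in WT (3675). The difference of rhythm was then called for 37 to 245 genes between EpiRE and WT, 305 to 380 between BRE and WT, 23 to 132 between RERE and EpiRE, 214 to 335 between RERE and BRE and 0 to 4 between EpiRE and BRE, and the difference of level for 48 to 321 between RERE and WT (236), 55 to 230 between EpiRE and WT (247), 0 to 1 between RERE and EpiRE and 1873 to 2520 between RERE and BRE (3020). Without 1 library the rhythm was called for 32 to 348 genes in BRE and 0 to 2 in EpiRE, the difference of rhythm for 110 to 293 between EpiRE and WT, 80 to 183 between RERE and EpiRE, 0 to 1 between EpiRE and BRE and 0 to 1 between RERE and WT, and the difference of level for 1 to 2 between RERE and EpiRE, so the shares of all genes given beside the cryptochromes move with single libraries. Replicate numbers did not pair the samples, since deviations of same-numbered libraries had a median r of 0.002, and the replicate block changed 0 of 40 results for Cry1 and Cry2. The causes of these changes were not tested otherwise. Fewest reads were 169 for Cry1, so counting noise limits its trough values most.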
